A study of Homo sapiens with 9 samples.

Results

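The 35 genes described here carry out or control the synthesis of cholesterol and fatty acids and the export of sterols. They were taken by gene symbol from a list of their names, and all 35 were found among the 59050 gene symbols of the count table. All of them also passed the filter on low counts, a CPM above 1 in at least 3 samples (CPM is a gene's count scaled to the total of its library), which 13463 genes passed in all. RNA of MEC1, an established B cell line derived from CLL (chronic lymphocytic leukemia), was sequenced from 9 samples in 3 groups of 3. The 2D samples were grown in conventional culture, and the samples named 3D_7d and 3D_14d were mixed with a hydrogel, bioprinted as a scaffold, crosslinked with calcium chloride and harvested at day 7 or day 14. All 3 groups came from the same cell line, with no knockout and no drug in the labels. The titles of all 9 samples begin with MECPGK, and what PGK stands for is not given in the sources used here. RNA of the scaffolds went through TRIzol, a DNase step and then a column, whereas 2D cells went straight onto the column kit. The labels give no day of harvest for the 2D samples. Culture, time in culture and extraction therefore cannot be told apart in any comparison with 2D. The labels do not say whether replicates came from separate cultures, so the p-values measure the spread between these samples, which may be technical.

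Cholesterol is built from acetyl-CoA through the mevalonate pathway, which ends in the isoprenoid farnesyl diphosphate, and then through squalene and a series of sterol intermediates. Most of these enzymes, and many of fatty acid synthesis, are transcribed under SREBP transcription factors, which the escort protein SCAP carries from the endoplasmic reticulum to the Golgi for activation and which INSIG proteins hold back when sterols are plentiful. Sterol surplus acts in the other direction through the LXR receptors, which switch on the sterol exporters ABCA1 and ABCG1 and the ubiquitin ligase MYLIP, which marks lipoprotein receptors for degradation.

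The reads counted in genes ranged from 54662799 to 85968686 per sample. The B cell markers MS4A1, CD79A, CD79B, PAX5 and CD22 were detected in every sample. MS4A1 was at 787 to 882 CPM in 2D, 1379 to 1670 at day 7 and 895 to 1232 at day 14, and CD79A at 453 to 563, 580 to 713 and 1130 to 1619. CD22 was lower in 3D, at 528 to 562 CPM in 2D, 214 to 310 at day 7 and 240 to 405 at day 14, and fell at both times (-1.12 and -0.71 on the log2 scale, edgeR adjusted p = 0.000736 and 0.014). The 6 monocyte or macrophage markers summed to at most 1.21 CPM and the 5 T cell markers to at most 1.33 CPM in any sample, and no gene of either list passed the filter. The 6 markers of stroma, epithelium or endothelium summed to 23.6 to 27.1 CPM in 2D, 38.3 to 55.0 at day 7 and 54.2 to 80.3 at day 14. Most of that sum was PECAM1, which lymphocytes can also express, while EPCAM and KRT8 stayed under 1 CPM. COL1A1 and PDGFRB went the other way at day 7, with mean levels of 6.95 and 3.68 CPM in 2D and 3.01 and 0.459 CPM at day 7 (-1.21 and -3.00 on the log2 scale), and were not called at day 14. The mitochondrially encoded share of counts was 2.3 to 2.83% in 2D, 1.44 to 1.64% at day 7 and 1.62 to 2.82% at day 14, and the part of these marker and mitochondrial values in the results was not tested.

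The sequences upstream of the members show which letters known from sterol-regulated promoters they hold. RefSeq promoters (GRCh38.p14) were matched by symbol for 30 of the 35 members, with 40 start sites in all. No entry was matched for FASN, ACAT2, ABCG1, FDFT1 and SQLE. On both strands of the 250 bases before each start, a form of the sterol response element, TCACNCCAC, was found in 1 of 40 promoters, that of SREBF2, against 0.883% of all 35116 promoters. The shorter CACNCCAC, which every match of the longer motif contains, was found in 7 of 40 (17.5%, against 4.87% of all), namely those of INSIG1, SCD, IDI1, SC5D, ACACA, ABCA1 and SREBF2. The CCAAT box, the site of the SREBP partner NF-Y, was found in 25 of 40 (62.5%, against 32.0%), with at least 2 copies in 16 of 40 (40.0%, against 9.53%). The GC box GGGCGG, a site of SP1, was found in 36 of 40 (90.0%, against 42.6%). Promoters of 1 gene can overlap, and a match is a description of the letters and not a site shown to be bound. The 35116 promoters include those of genes not expressed here, whereas all members passed the filter. Promoters of expressed genes alone were not compared, so these shares are not shown to be particular to sterol genes.

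The stretches below are shown for the members on which the results turn, each read 5′ to 3′ on the gene's strand. Each ends before the first base of its gene in the count table, so that none holds an exon of that gene there. Exons of other genes were not checked. Capitals mark CCAAT or its reverse complement ATTGG and the sterol element letters CACNCCAC or GTGGNGTG, within TCACNCCAC where that is present. All 7 genes lie on the plus strand. HSD17B7 (chr1:162790452-162790701) fell in 3D at both times, and MSMO1 (chr4:165327419-165327668), which also fell, holds 4 CCAAT boxes. NSDHL (chrX:152830813-152830966) is the sterol enzyme that rose at day 7 and also holds 4, of which the last pair overlap. INSIG1 (chr7:155297628-155297775), SREBF2 (chr22:41832855-41833078) and SCD (chr10:100346983-100347232) hold the sterol element letters. MYLIP (chr6:16128836-16129085), an LXR target, had the largest fold change of the 35 members at day 7.
HSD17B7: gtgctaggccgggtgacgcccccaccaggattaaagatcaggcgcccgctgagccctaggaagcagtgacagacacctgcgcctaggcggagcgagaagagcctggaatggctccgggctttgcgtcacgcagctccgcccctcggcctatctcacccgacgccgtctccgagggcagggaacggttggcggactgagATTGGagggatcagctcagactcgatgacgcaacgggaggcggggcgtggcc
MSMO1: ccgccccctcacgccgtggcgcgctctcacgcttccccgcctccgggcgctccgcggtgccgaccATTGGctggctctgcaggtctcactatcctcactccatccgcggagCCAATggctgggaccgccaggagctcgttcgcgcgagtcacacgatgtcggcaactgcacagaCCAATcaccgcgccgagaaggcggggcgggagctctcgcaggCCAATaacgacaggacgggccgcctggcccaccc
NSDHL: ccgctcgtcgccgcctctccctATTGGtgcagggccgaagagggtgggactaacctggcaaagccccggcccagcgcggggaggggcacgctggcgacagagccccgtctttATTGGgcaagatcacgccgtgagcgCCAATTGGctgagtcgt
INSIG1: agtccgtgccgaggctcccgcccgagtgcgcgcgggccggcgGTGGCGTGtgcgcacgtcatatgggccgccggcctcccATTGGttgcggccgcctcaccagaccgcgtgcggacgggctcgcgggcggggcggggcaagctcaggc
SREBF2: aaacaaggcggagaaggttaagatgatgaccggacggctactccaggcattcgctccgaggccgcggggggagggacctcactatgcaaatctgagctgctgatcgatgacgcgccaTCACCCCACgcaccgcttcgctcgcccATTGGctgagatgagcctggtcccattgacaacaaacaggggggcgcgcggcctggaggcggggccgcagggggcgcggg
SCD: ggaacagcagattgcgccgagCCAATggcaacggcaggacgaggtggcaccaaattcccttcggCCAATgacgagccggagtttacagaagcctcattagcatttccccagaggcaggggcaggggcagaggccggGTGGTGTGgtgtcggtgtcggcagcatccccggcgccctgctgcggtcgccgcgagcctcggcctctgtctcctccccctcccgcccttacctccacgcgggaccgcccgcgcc
MYLIP: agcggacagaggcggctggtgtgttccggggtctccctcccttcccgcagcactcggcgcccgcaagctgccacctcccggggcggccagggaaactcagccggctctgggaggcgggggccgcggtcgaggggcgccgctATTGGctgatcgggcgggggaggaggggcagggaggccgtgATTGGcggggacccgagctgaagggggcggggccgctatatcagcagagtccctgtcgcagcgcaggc

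The first question was how the 35 members differed between bioprinted and 2D cells. Expression is given as CPM after TMM scaling of the libraries, and a gene is said to have risen or fallen, or to be called, where edgeR's quasi-likelihood test gave a Benjamini-Hochberg adjusted p of at most 0.05 over all 13463 genes. At day 7, 3 members rose (8.57%) and 12 fell (34.3%), whereas of all genes tested 22.2% rose and 21.2% fell. At day 14, no member rose, whereas 14 fell (40.0%), against 19.0% and 17.2% of all genes. One member was higher at day 14 at an unadjusted p under 0.05, and 1, SCAP, was called by DESeq2. The median log2 fold change of the members was -0.29 at day 7 and -0.44 at day 14, whereas that of all genes was -0.0039 and 0.023. The groups did not overlap in 24 members at day 7 (68.6%), close to the 64.6% of all genes, and in 22 at day 14 (62.9%), against 49.7% of all genes. Both comparisons share the 2D samples. The members were chosen with earlier results of these data known, so no test over the list was made. In bulk RNA, fewer cells expressing a gene and less of its RNA per cell cannot be told apart.

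**Figure D1:**
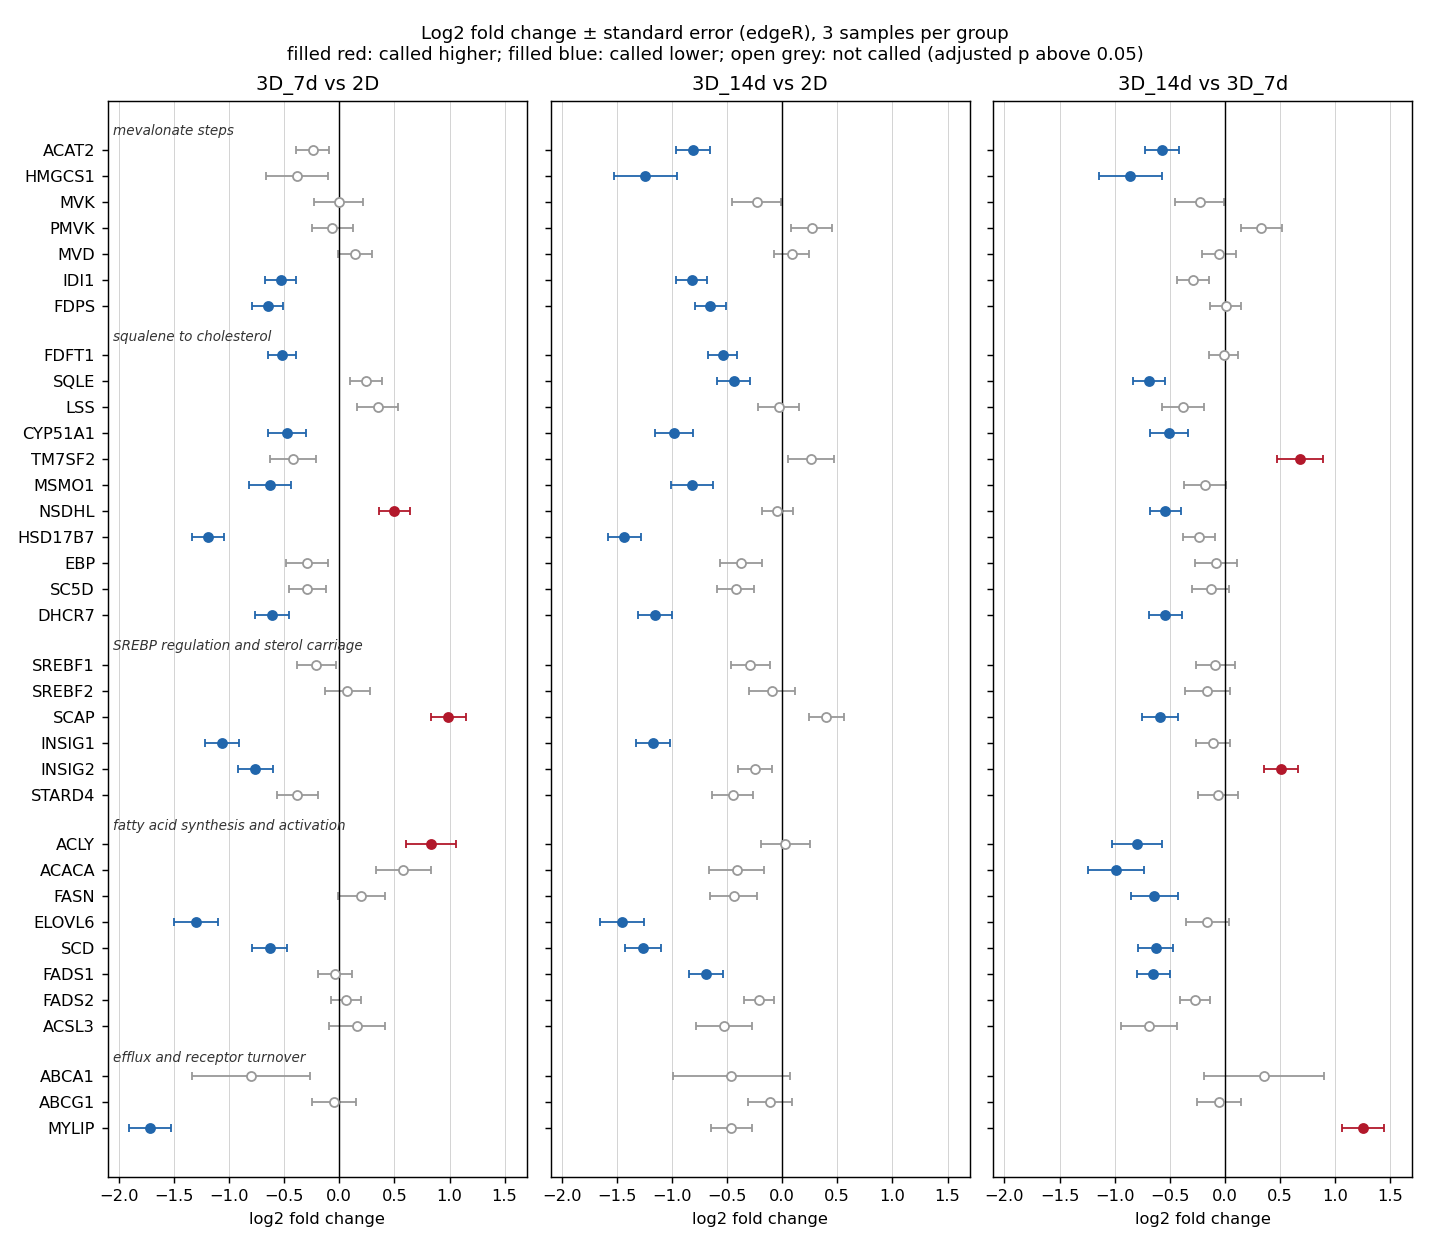
Log2 fold change of each member (points) with its standard error (bars) in 3 comparisons of 3 samples against 3, grouped by role; filled points passed the threshold (red, higher; blue, lower) and open grey points did not. Against 2D, 12 points are blue at day 7 and 14 at day 14, while MYLIP and INSIG2 lie lower at day 7 (-1.72 and -0.76) than at day 14 (-0.46 and -0.25).

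Of the 7 genes of the mevalonate steps, 2 fell at day 7 (28.6%, against 21.2% of all genes). At day 14, 4 fell (57.1%, against 17.2%). IDI1, the isomerase that makes the allylic building block dimethylallyl diphosphate, was at 507, 529 and 485 CPM in the 2D samples, at 356, 337 and 358 at day 7 and at 248, 274 and 337 at day 14. All 6 bioprinted samples were below all 2D samples. Its log2 fold change was -0.53 ± 0.141 (SE, n = 3 per group, edgeR adjusted p = 0.0091) at day 7 and -0.82 ± 0.142 (edgeR adjusted p = 0.000838) at day 14. FDPS, which makes farnesyl diphosphate, was at 286, 279 and 274 CPM in 2D, at 176, 163 and 195 at day 7 and at 201, 178 and 157 at day 14. It fell by 0.65 on the log2 scale at both times, with standard errors of 0.138, and the day 7 and day 14 samples overlapped. HMGCS1, the synthase that makes HMG-CoA, was at 40.2, 51.2 and 46.8 CPM in 2D, at 36.0, 32.5 and 37.7 at day 7 and at 9.76, 20.4 and 28.3 at day 14. Its groups did not overlap in any comparison, but the call at day 7 was missed (log2 fold change -0.38 ± 0.282, edgeR adjusted p = 0.295), while at day 14 it fell (-1.24 ± 0.287, edgeR adjusted p = 0.00506).

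ACAT2, the cytosolic thiolase that starts the pathway, was at 181, 178 and 162 CPM in 2D, at 159, 128 and 154 at day 7 and at 117, 95.5 and 85.6 at day 14. Only the day 14 difference from 2D passed the threshold (-0.81 ± 0.152, edgeR adjusted p = 0.00154). The kinases MVK and PMVK and the decarboxylase MVD, which act between HMGCS1 and IDI1, were not called in any comparison, with log2 fold changes against 2D of -0.23 to 0.27. Of ACAT2's exonic bases 69.6% are shared with other genes of the annotation (SOD2, SOD2-OT1 and TCP1), of HMGCS1's 45.8% and of FDPS's 20.0%, and how such reads were counted is not given in the sources used here. The summed level of the 7 genes was 1395 ± 61.8 CPM in 2D (SD, n = 3), 1114 ± 57.1 at day 7 and 1017 ± 75.0 at day 14.

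Among the 11 genes from squalene to cholesterol, 5 fell (45.5%) and 1 rose (9.09%) at day 7, against 21.2% and 22.2% of all genes. At day 14, 6 fell (54.5%, against 17.2%). The clearest change was in HSD17B7, the reductase of the 3-keto sterol intermediates. It was at 48.1, 47.2 and 49.4 CPM in 2D, at 20.0, 20.0 and 23.3 at day 7 and at 19.1, 17.7 and 16.7 at day 14. No bioprinted sample came near the 2D range, and HSD17B7 fell at day 7 (-1.19 ± 0.146, edgeR adjusted p = 6.43e-05) and at day 14 (-1.43 ± 0.147, edgeR adjusted p = 2.86e-05). Its pseudogene copy HSD17B7P2, which is close to it in sequence, was at 28.9, 30.5 and 34.6 CPM in 2D, at 7.27, 5.10 and 5.42 at day 7 and at 6.35, 6.16 and 5.70 at day 14. The copies together held 23.2 to 70.1% as many counts as HSD17B7, and how reads that match both were assigned is not given in the sources used here. Summed over HSD17B7 and its copies, the level was 77.1 to 84.0 CPM in 2D, 25.1 to 28.8 at day 7 and 22.4 to 25.5 at day 14, so the sum did not overlap with 2D either.

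DHCR7, which makes cholesterol from 7-dehydrocholesterol, was at 261, 261 and 251 CPM in 2D, at 182, 154 and 170 at day 7 and at 95.5, 140 and 113 at day 14. It fell by 0.61 ± 0.153 on the log2 scale at day 7 (edgeR adjusted p = 0.00638) and by 1.15 ± 0.155 at day 14 (edgeR adjusted p = 0.000171). FDFT1, the squalene synthase, was at 569, 568 and 535 CPM in 2D, at 382, 357 and 425 at day 7 and at 406, 393 and 353 at day 14. The fall was of nearly the same size at both times (-0.52 ± 0.130 and -0.54 ± 0.130). The demethylases CYP51A1 and MSMO1 fell at day 7 (-0.47 and -0.63) and at day 14 (-0.98 and -0.82). The call on CYP51A1 at day 7 had an edgeR adjusted p of 0.0427 and was lost in 8 of 19 alternatives, while both calls at day 14 held in all 19.

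NSDHL, a sterol dehydrogenase that acts in the same demethylation as MSMO1, went the other way at day 7. It was at 50.7, 52.0 and 45.2 CPM in 2D, at 63.8, 72.1 and 73.2 at day 7 and at 51.2, 48.9 and 43.5 at day 14. The 3 day 7 samples were above all others, and NSDHL rose at day 7 (0.50 ± 0.139, edgeR adjusted p = 0.0114), a call lost in 6 of 19 alternatives, and was not called at day 14 (-0.042 ± 0.138). SQLE, the squalene epoxidase, was at 156, 149 and 143 CPM in 2D, at 152, 179 and 200 at day 7 and at 95.2, 114 and 120 at day 14. It fell at day 14 (-0.44 ± 0.147, edgeR adjusted p = 0.0313), a call that was also lost in 6 alternatives. LSS, TM7SF2, EBP and SC5D were called in neither comparison with 2D, with log2 fold changes of -0.42 to 0.35. Of EBP's exonic bases 57.1% are shared with AF196969.1, and how such reads were counted is not given in the sources used here. The summed level of the 11 genes was 1740 ± 54.4 CPM in 2D (SD, n = 3), 1360 ± 69.9 at day 7 and 1146 ± 73.3 at day 14.

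**Figure D2:**
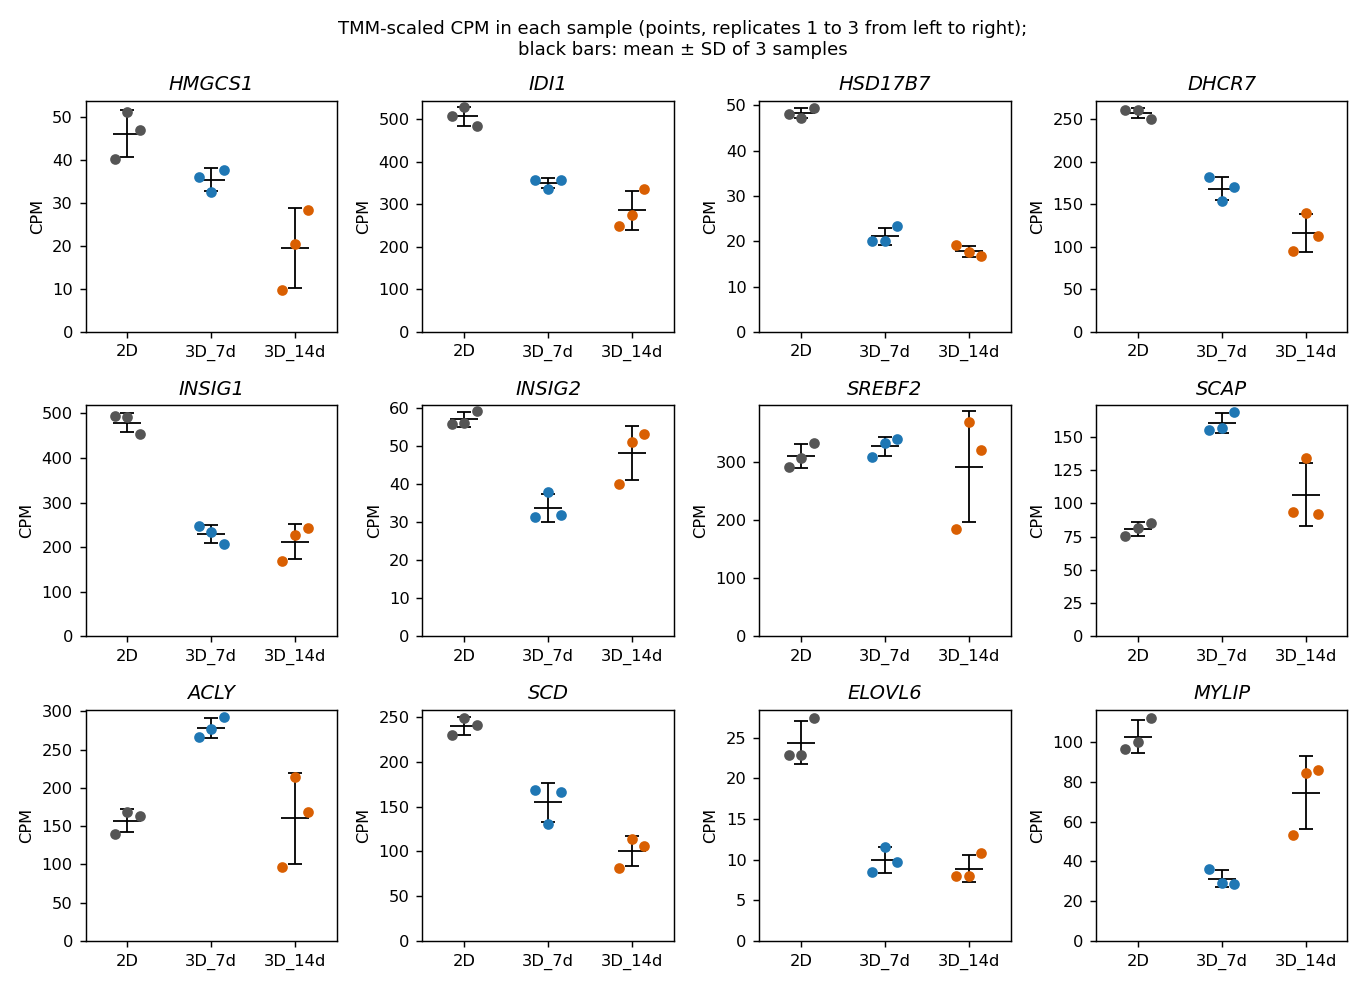
TMM-scaled CPM of 12 members in each sample (points, replicates 1 to 3 from left to right in each group), with the mean and SD of 3 samples in black; each vertical axis starts at 0. IDI1, HSD17B7, DHCR7, INSIG1, SCD and ELOVL6 lie below all 2D samples at both times, SCAP and ACLY are highest at day 7, and MYLIP and INSIG2 are lowest at day 7.

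Of the 6 genes of SREBP regulation and sterol carriage, 2 fell (33.3%) and 1 rose (16.7%) at day 7. Of all genes, 21.2% fell and 22.2% rose. At day 14, 1 of the 6 fell (16.7%), against 17.2% of all genes. SREBF2, which encodes the SREBP that acts mainly on sterol genes, was at 292, 307 and 333 CPM in 2D, at 308, 333 and 339 at day 7 and at 185, 369 and 321 at day 14. SREBF1, which encodes the SREBP forms that act mainly on fatty acid genes, was at 51.4, 47.8 and 53.6 CPM in 2D, at 52.2, 46.5 and 33.8 at day 7 and at 41.0, 47.2 and 36.6 at day 14. Neither was called in any comparison, and their transcript levels do not measure the processed protein. For SREBF2 the log2 fold change was 0.073 (95% interval -0.33 to 0.48) at day 7 and -0.092 (-0.49 to 0.31) at day 14.

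INSIG1, itself a target of SREBP and its retention factor, was at 493, 491 and 454 CPM in 2D, at 247, 233 and 208 at day 7 and at 169, 227 and 242 at day 14. Every bioprinted sample was below every 2D sample, and INSIG1 fell at day 7 (-1.06 ± 0.155, edgeR adjusted p = 0.000208) and at day 14 (-1.17 ± 0.156, edgeR adjusted p = 0.000162). Its paralog INSIG2 was at 55.8, 56.2 and 59.3 CPM in 2D, at 31.4, 38.0 and 32.0 at day 7 and at 40.0, 51.1 and 53.3 at day 14. INSIG2 fell at day 7 (-0.76 ± 0.155, edgeR adjusted p = 0.00186), and at day 14 it was below 2D in every sample without passing the threshold (-0.25 ± 0.154, edgeR adjusted p = 0.229). SCAP, the escort protein that both INSIG proteins bind, was at 75.4, 81.2 and 85.6 CPM in 2D, at 155, 157 and 169 at day 7 and at 93.5, 134 and 92.0 at day 14. It had the largest rise of the 35 members at day 7 (0.99 ± 0.161, edgeR adjusted p = 0.000428), and this call held in all 19 alternatives. At day 14 SCAP was still above 2D in 3 of 3 samples, and the difference missed the threshold (0.40 ± 0.159, edgeR adjusted p = 0.0666) but passed it in 5 of 19 alternatives. STARD4, a cytosolic sterol carrier, was not called (-0.38 ± 0.183 and -0.45 ± 0.183).

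Of the 8 genes of fatty acid synthesis and activation, 2 fell (25.0%) and 1 rose (12.5%) at day 7. Of all genes, 21.2% fell and 22.2% rose. At day 14, 3 of the 8 fell (37.5%), against 17.2% of all genes. The falls were those of the elongase ELOVL6 and the desaturases SCD and FADS1. ELOVL6, which elongates palmitate, was at 22.9, 22.8 and 27.4 CPM in 2D, at 8.53, 11.6 and 9.70 at day 7 and at 7.93, 7.97 and 10.8 at day 14. It fell at day 7 (-1.30 ± 0.198, edgeR adjusted p = 0.000285) and at day 14 (-1.45 ± 0.199, edgeR adjusted p = 0.000195). SCD, the desaturase that makes oleate, was at 230, 249 and 241 CPM in 2D, at 169, 130 and 166 at day 7 and at 81.2, 114 and 106 at day 14. The 3 groups were fully separated, with log2 fold changes against 2D of -0.63 ± 0.160 at day 7 (edgeR adjusted p = 0.00707) and -1.26 ± 0.162 at day 14 (edgeR adjusted p = 0.000131). FADS1, the desaturase of polyunsaturated chains encoded next to FADS2, was at 126, 129 and 128 CPM in 2D, at 140, 103 and 130 at day 7 and at 72.2, 91.6 and 73.8 at day 14. It fell at day 14 (-0.69 ± 0.152, edgeR adjusted p = 0.00398), whereas FADS2 was not called (-0.21 ± 0.135).

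The first enzymes of the route gave other values. ACLY, which makes cytosolic acetyl-CoA from citrate, was at 157 ± 15.2 CPM in 2D (SD, n = 3), at 278 ± 12.7 at day 7 and at 160 ± 59.2 at day 14. It rose at day 7 (0.83 ± 0.225, edgeR adjusted p = 0.0104), a call that was lost only when 2D replicate 1 was left out (adjusted p = 0.0539). ACACA, the carboxylase that makes malonyl-CoA, was at 15.9, 15.5 and 27.1 CPM in 2D, at 33.6, 24.6 and 29.3 at day 7 and at 17.8, 10.7 and 15.6 at day 14. The highest 2D sample lay within the day 7 range, and neither difference from 2D was called (0.58 ± 0.250 and -0.41 ± 0.250). The day 7 difference passed the threshold in 5 of 19 alternatives, among them the fit without 2D replicate 3. FASN, the fatty acid synthase, and ACSL3, which activates long chain fatty acids, were not called against 2D either, with log2 fold changes of 0.20 and 0.16 at day 7 and -0.44 and -0.53 at day 14. The summed level of the 8 genes was 865 ± 30.6 CPM in the 2D samples, 916 ± 57.7 at day 7 and 600 ± 112 at day 14.

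**Figure D3:**
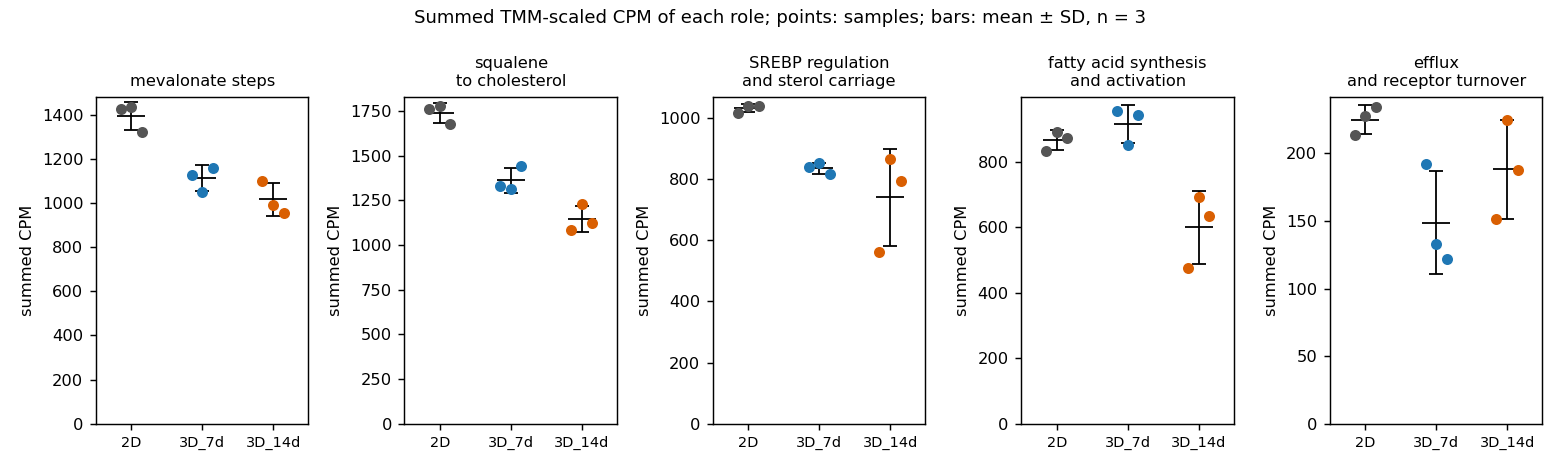
Summed TMM-scaled CPM of the members of each role in each sample (points), with the mean and SD of 3 samples in black; each axis starts at 0. The sums of both enzyme roles of sterol synthesis are below 2D in all 6 bioprinted samples, and the fatty acid sum is below 2D in the 3 day 14 samples.

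The genes of sterol export and receptor turnover, usual targets of LXR, were described 1 by 1. MYLIP was at 96.5, 100 and 112 CPM in 2D, at 36.3, 29.2 and 28.5 at day 7 and at 53.5, 84.4 and 86.1 at day 14. The 3 groups did not overlap. MYLIP fell at day 7 (-1.72 ± 0.191, edgeR adjusted p = 3.37e-05), and at day 14 the difference missed the threshold (-0.46 ± 0.186, edgeR adjusted p = 0.0683), passing it in 5 of 19 alternatives. ABCG1 was at 116, 126 and 121 CPM in 2D, at 155, 103 and 92.5 at day 7 and at 97.9, 140 and 99.8 at day 14, with overlap between all groups and log2 fold changes of -0.051 ± 0.200 and -0.11 ± 0.200. ABCA1 was barely expressed, at 0.792, 1.39 and 1.38 CPM in 2D, 0.727, 0.822 and 0.494 at day 7 and 0.371, 0.609 and 1.62 at day 14. These levels stand for 20 to 129 counts per sample, and ABCA1 was not called. Its log2 fold change was -0.80 (95% interval -1.86 to 0.25) at day 7 and -0.46 (-1.50 to 0.59) at day 14, so these samples leave its direction unresolved.

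The members also differed widely in level. In CPM per kilobase of exon (RPKM) in the 2D samples, the mean level was 170 for FDPS (range 166 to 174), 166 for PMVK (150 to 186), 156 for INSIG1 (147 to 160), 139 for IDI1 (133 to 145) and 121 for FDFT1 (117 to 124). FDPS and PMVK, and PMVK and INSIG1, overlapped, whereas IDI1 was separate from INSIG1, and FDFT1 from IDI1. The lowest levels were those of ABCA1 (0.106 RPKM), ACACA (1.76), FASN (3.50) and ELOVL6 (3.68).

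The second question was whether the bioprinted cells changed between day 7 and day 14. Both of these groups were extracted in the same way, while the spread was estimated from all 9 samples, 2D included. Between these times 3 members rose (8.57%) and 12 fell (34.3%), whereas of all genes 14.5% rose and 13.6% fell. The groups did not overlap in 18 members (51.4%), against 39.3% of all genes. The median log2 fold change was -0.23 over the members and -0.0012 over all genes. MYLIP rose by 1.25 ± 0.189 (edgeR adjusted p = 0.000788), INSIG2 by 0.51 ± 0.155 (edgeR adjusted p = 0.0270) and TM7SF2, a sterol reductase, by 0.68 ± 0.208 (edgeR adjusted p = 0.0290) on the log2 scale. MYLIP and INSIG2 at day 14 lay between the day 7 and the 2D samples, and the TM7SF2 groups overlapped.

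Of the 12 members that fell after day 7, 5 belonged to the 8 fatty acid genes, namely ACACA (-0.99 ± 0.252, edgeR adjusted p = 0.0123), ACLY (-0.80 ± 0.225), FADS1 (-0.65 ± 0.152), FASN (-0.64 ± 0.214) and SCD (-0.63 ± 0.160). These 5 are 62.5% of the 8, against 13.6% of all genes. In 7 of the 8 the day 14 samples were all below the day 7 samples. The groups did not overlap in 87.5% of the 8, against 39.3% of all genes. All 3 members that had risen at day 7 fell afterwards, ACLY, SCAP (-0.59 ± 0.160) and NSDHL (-0.54 ± 0.139), and for these 3 the high day 7 values enter both comparisons. In sterol synthesis, SQLE fell the most clearly (-0.69 ± 0.147, edgeR adjusted p = 0.00519), and HMGCS1 (-0.86), ACAT2 (-0.57), DHCR7 (-0.54) and CYP51A1 (-0.51) also fell. INSIG1, FDPS, FDFT1, HSD17B7, ELOVL6, IDI1 and MSMO1, which differed from 2D at both times, were not called between day 7 and day 14, with log2 fold changes of -0.29 to 0.0063. The day 14 samples of IDI1 and HSD17B7 were nevertheless all below the day 7 samples. The number of members that fell depended on the day 7 samples, with 3 when 3D_7d replicate 3 was left out and 7 when replicate 1 or replicate 2 was left out. With the 6 scaffold samples alone in the fit, 1 member rose and 5 fell, and the calls on HMGCS1, CYP51A1 and FASN were also lost without any 1 of the 2D samples. Only 4 of the 15 calls, SQLE, ACACA, MYLIP and FADS1, held in all 19 alternatives.

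One day 14 sample stood apart. In 3D_14d replicate 1, 21 of the 35 members had the lowest value of the 3 day 14 samples, 11 had the highest, and 18 had the lowest value of all 9 samples. Beside HMGCS1 and SREBF2, given above, ACSL3 was at 33.4 CPM against 71.2 and 87.7 in the other day 14 samples. The sample did not stand apart in depth or in mitochondrial share. It differed from the other day 14 samples over all 13463 genes too. There the chi-square per gene, a difference in counts relative to counting error, was 305 and 253 in its 2 pairs. It was 155 between replicates 2 and 3. The shares of all genes lowest or highest in this sample were not counted, so its position is not shown to be particular to the members. Without it, 16 members fell at day 14 against 2D and 1, SCAP, rose, the median was -0.35, and 14 members fell between day 7 and day 14.

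**Figure D4:**
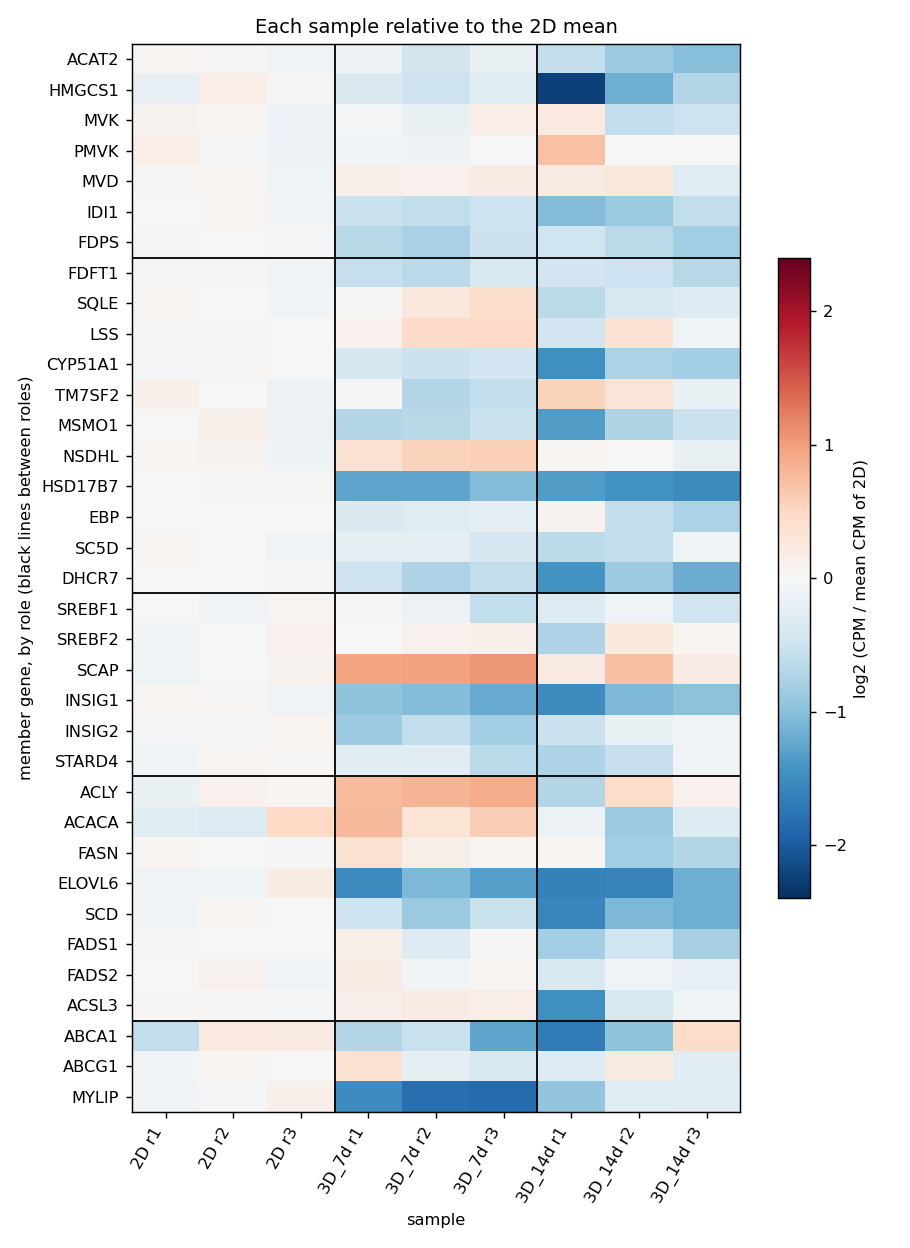
Log2 ratio of the CPM of each member (rows, by role) in each of the 9 samples (columns) to its mean CPM over the 2D samples; blue is below and red above that mean. HSD17B7, INSIG1, ELOVL6 and SCD are blue in all 6 bioprinted columns, SCAP is red in all 6, and HMGCS1, CYP51A1, MSMO1 and ACSL3 are darkest in the first day 14 column.

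Other genes of the same pathways, which are not among the 35, were taken from lists written by name. Where counts of a list are given, they stand beside 22.2% of all genes higher and 21.2% lower at day 7. At day 14 the shares of all genes were 19.0% and 17.2%. Among other sterol genes, LIPA, the lysosomal lipase that frees cholesterol from its esters, was at 54.3, 54.0 and 50.2 CPM in 2D, at 82.0, 95.2 and 87.3 at day 7 and at 56.2, 82.8 and 81.3 at day 14. It rose at day 7 (0.74 ± 0.162, edgeR adjusted p = 0.0029) and at day 14 (0.47 ± 0.162, edgeR adjusted p = 0.0359). TMEM97, a sterol-regulated membrane protein, was at 88.3, 95.3 and 82.3 CPM in 2D, at 63.2, 69.0 and 74.7 at day 7 and at 20.5, 33.5 and 33.5 at day 14, and fell at day 14 (-1.60 ± 0.188, edgeR adjusted p = 7e-05).

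Of the 10 genes of the isoprenoid branch, 3 rose (30.0%) and 0 fell at day 7. Those that rose included DHDDS (0.82 ± 0.149) of dolichol synthesis and the prenyltransferase subunit PGGT1B (0.67 ± 0.179). At day 14 DHDDS rose (0.45 ± 0.149) and PDSS1, of ubiquinone side chain synthesis, fell (-0.77 ± 0.176). Of 17 other fatty acid synthesis genes, 7 rose (41.2%) and 2 fell (11.8%) at day 7 and 3 rose (17.6%) and 1 fell (5.88%) at day 14. MID1IP1, an activator of acetyl-CoA carboxylase, was at 73.2, 67.1 and 62.2 CPM in 2D, at 21.3, 24.3 and 27.7 at day 7 and at 55.2, 67.3 and 58.0 at day 14, so that it was low at day 7 and overlapped with 2D at day 14. It fell at day 7 (-1.47 ± 0.155, edgeR adjusted p = 2.5e-05). The acyl-CoA synthetase ACSL5 rose at day 7 (1.11 ± 0.144) and at day 14 (0.44 ± 0.143). FADS3 (1.42 ± 0.210) and the elongase ELOVL1 (0.53 ± 0.139) rose at day 14, and ELOVL1 had also risen at day 7 (0.58 ± 0.139).

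Of 8 LXR receptors and other LXR targets tested, 2 rose (25.0%) and 1 fell (12.5%) at day 7 and 3 rose (37.5%) at day 14. LPCAT3, a phospholipid acyltransferase, was at 9.38, 9.34 and 10.8 CPM in 2D, at 24.1, 24.6 and 24.7 at day 7 and at 10.6, 20.9 and 17.3 at day 14. LPCAT3 rose at day 7 (1.31 ± 0.224) and at day 14 (0.72 ± 0.222), and 67.4% of its exonic bases are shared with EMG1. APOE, an apolipoprotein, was at 2.00 CPM or less in every sample and fell at day 7 (-2.68 ± 0.704). NR1H2, the LXR beta receptor, rose at day 14 (0.48 ± 0.157). Of 12 genes of fatty acid oxidation, 4 rose (33.3%) and 2 fell (16.7%) at day 7 and 2 rose (16.7%) and 1 fell (8.33%) at day 14. With so few genes in a list, these shares are counts of single genes and nothing is read from their distance to the background. SLC25A20, the mitochondrial acylcarnitine carrier, rose at both times (1.20 ± 0.160 and 1.00 ± 0.160), and ACADVL, the very long chain dehydrogenase, fell at both (-0.94 ± 0.159 and -0.58 ± 0.158).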

How the data were processed

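Low-input RNA-seq libraries of 9 samples, 3 per culture condition, were made by the authors and sequenced as single reads. Per the submitters' processing notes, Trimmomatic (0.39), STAR (2.5.3a), featureCounts (1.6.4) and GRCh38 were used. The authors deposited raw counts per gene symbol, without normalization, and exon lengths. Strand and multi-mapping settings are not given in the sources used here. A symbol on more than 1 chromosome (150 symbols) has 1 summed row.

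In R (4.3.3), edgeR (4.0.16) was used for TMM factors, 1 model of all 9 samples with a mean per group, and the quasi-likelihood test of 3 contrasts. The filter kept the 13463 of 51726 detected genes that exceeded a CPM of 1 in 3 or more samples, and p-values were Benjamini-Hochberg adjusted over them. Intervals are 1.96 standard errors on each side, which is narrower than 95% under the quasi-likelihood test. For STARD4 at day 7 the interval was -0.74 to -0.026, while edgeR's unadjusted p was 0.056. The scripts were tested on simulated data. Counting error was smaller than the differences among replicates.

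Members, lists and tests were chosen with earlier results of these data known. Values in every sample are given for the 2 members of each role and comparison with the smallest p among those called, all genes of efflux and receptor turnover, SREBF1, SREBF2, INSIG1 and INSIG2. Of each other list, at most the 2 genes with the smallest p in each comparison with 2D are named. Some genes of the marker and sterol lists are not reported here. The HSD17B7P2, ACLY and ACSL3 levels, and the promoters printed, were chosen after values were seen. The 19 alternatives for each member were other scalings (DESeq2's size factors, total counts, TMM without immunoglobulin, ribosomal protein and mitochondrial genes), the Wald test of DESeq2 (1.42.0), filterByExpr or no filter, only the 6 samples of a contrast, a replicate block, a length trend removed (loess, span 0.4), both together, and leaving out each sample. For ABCA1, only 15 or 16 of these alternatives gave a result, depending on the comparison. A minimum absolute log2 fold change of 1 was applied to counts of calls.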

Additional observations from a re-analysis of the deposited data

Results flagged for a closer look

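The log2 differences of 15 members from 2D were not the same at day 7 and at day 14. Since both share the 2D samples, the difference between them is the comparison of 3D_14d with 3D_7d, which edgeR's quasi-likelihood test called at a Benjamini-Hochberg adjusted p of at most 0.05. The log2 fold change from day 7 to day 14 was -0.57 for ACAT2, -0.86 for HMGCS1, -0.69 for SQLE, -0.51 for CYP51A1, -0.54 for NSDHL, -0.54 for DHCR7 and 0.68 for TM7SF2 among the sterol enzymes. It was -0.59 for SCAP and 0.51 for INSIG2 among the regulators, and 1.25 for MYLIP. In fatty acid synthesis it was -0.80 for ACLY, -0.99 for ACACA, -0.64 for FASN, -0.63 for SCD and -0.65 for FADS1. The calls on SQLE, ACACA, FADS1 and MYLIP held in all 19 alternatives, and the other 11 were lost in at least 1.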

How the results depend on the processing

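No call on a member changed direction under any alternative. All 19 alternatives kept 9 of the 15 calls of day 7 against 2D, 13 of the 14 calls of day 14 against 2D (SQLE was lost) and 4 of the 15 calls of day 14 against day 7. Among values that were not called, 73 of 1087 had the other sign. With only the 6 samples of a contrast, 5 members were higher and 18 lower at day 7 against 2D, and between day 7 and day 14 only 1 was higher and 5 were lower. With a minimum absolute log2 fold change of 1, 0 members were higher and 4 lower at day 7 against 2D, 6 were lower at day 14 against 2D, and between day 7 and day 14 1 was higher and 0 were lower, because most changes were smaller. At day 14 against 2D, 1 member was higher (SCAP) with the Wald test of DESeq2, with the length trend removed and with the replicate block together with the length trend removed. Scaling by total counts moved the median of all genes to -0.16 at day 7 and -0.18 at day 14, and that of the members to -0.45 and -0.63, with 14 members lower at day 7 and 21 at day 14. Leaving out 1 sample gave 1 (without 2D replicate 1) to 3 members higher and 10 to 15 lower at day 7 against 2D, with a median of -0.34 to -0.26. At day 14 against 2D it gave 0 to 1 higher (1 without 3D_14d replicate 1 or 3) and 13 to 18 lower, with a median of -0.52 to -0.35. Between day 7 and day 14 it gave 1 (without 3D_7d replicate 3) to 3 higher and 3 to 14 lower, with a median of -0.32 to -0.18. Where not stated, the cause was not tested.

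The replicate numbers of the labels were not shown to pair the samples. Correlations of same-numbered samples' deviations from their group means were -0.10 to 0.19. In 2D against day 14 every 2D sample correlated best with its own number, a hint from the data only. With the number as a block, 4 members were higher and 13 lower at day 7 against 2D, 0 and 14 at day 14 against 2D, and 3 and 13 between day 7 and day 14.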
